A study of Bos taurus with 4 samples.

Results

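The genes described here are those of 3 whey proteins of cow's milk, alpha-lactalbumin (LALBA, ENSBTAG00000005859), beta-lactoglobulin (PAEP, ENSBTAG00000014678) and lactoferrin (LTF, ENSBTAG00000001292). They were chosen by Ensembl identifier, as 3 of the 24616 gene rows of the deposited table, and the pairing of identifier with gene came with that choice. The table itself holds no gene names, and the RefSeq gene table (assembly ARS-UCD2.0) lists all 3 symbols, on separate chromosomes, but no Ensembl identifier, so the pairing was not checked here. RNA sequencing had been run on 4 samples of Holstein cattle (breed spelled "Hostein" in the labels), and the question put to these genes is how their transcripts differ between mammary tissue and lymphocytes and what they show of secretion by the gland. The groups were mammary tissue, 2 libraries labelled female, and lymphocytes, 2 libraries labelled male. Tissue and sex therefore cannot be told apart. Both mammary titles, but no lymphocyte title, also contain an unexplained "dup". Age, stage of lactation, health and treatment were not given in the sources used here. Nor was it stated whether replicate libraries stem from different animals. Any p-value therefore reflects only variation among these libraries, which some fits pooled over rows in place of the gene's own.

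LALBA is the regulatory subunit of lactose synthase: bound to a galactosyltransferase in the Golgi of the milk-secreting cell, it directs that enzyme to make lactose, the sugar that draws water into milk. PAEP is a lipocalin, a small carrier of hydrophobic molecules, and the main whey protein of ruminant milk. Both are made by secretory epithelial cells under the control of lactogenic hormones. LTF is an iron-binding defence protein, which is known to be plentiful in the secretion of the drying-off or inflamed udder and is also stored in the granules of neutrophils.

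The deposited unit is FPKM, the fragments of a gene scaled by transcript length and by the mapped fragments of the library, so levels of different genes can be set side by side. Summed FPKM ranged from 828745 to 1536182 per library, and read depth is unknown. Most rows were lower in mammary replicate 2 than in mammary replicate 1: the median of the 12311 rows tested differed by -1.05 in log2(FPKM + 1). A row was tested if 2 or more libraries reached 1 FPKM, and LALBA, PAEP and LTF were all among them. LALBA and PAEP reached that level in all 4 libraries, whereas LTF reached it in the 2 mammary libraries alone and so entered the test through the group in which it was high. The 12 lists of epithelial, lymphocyte, neutrophil, stromal and other genes drawn up for these tissues could not be matched to rows, so the tissue labels were not checked against other markers and no neutrophil or epithelial level can be given beside LTF.

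The mammary libraries held all 3 whey protein transcripts at levels far above the lymphocyte libraries, but in opposite proportions. In mammary replicate 1 LTF was the most abundant of them, ahead of PAEP and LALBA. In mammary replicate 2 PAEP and LALBA were among the 12 highest rows of the whole library and LTF lay far below both. The samples were bulk RNA, in which fewer cells of a type and less RNA per cell cannot be told apart.

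**Figure D1:**
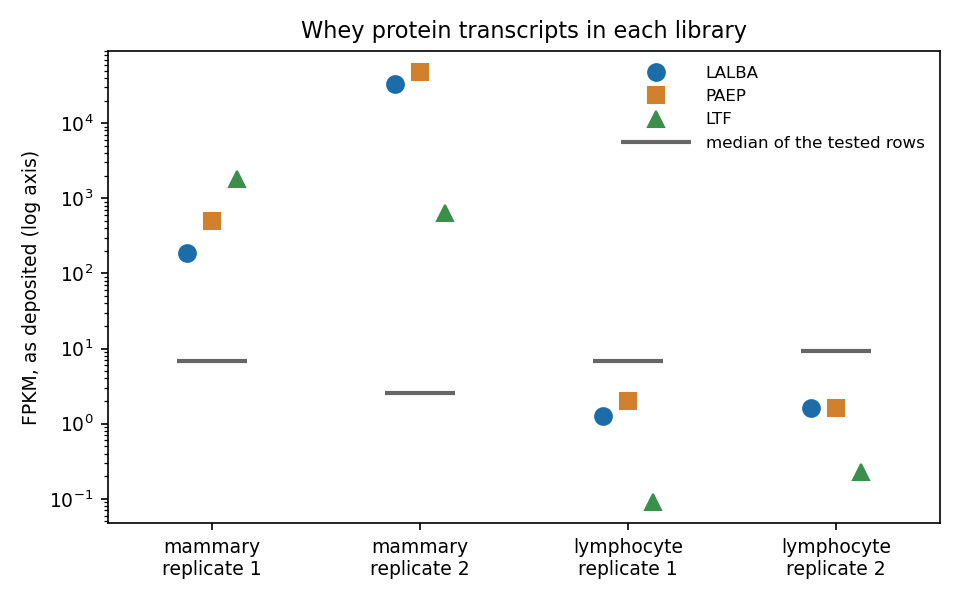
FPKM as deposited (log axis) of LALBA, PAEP and LTF in each of the 4 libraries, 1 point per library, with a bar at the median of the 12311 rows tested. LTF is the highest of the 3 genes in mammary replicate 1 (1782 FPKM) and the lowest in each of the other libraries; all 3 lie above the bar in both mammary libraries and below it in both lymphocyte libraries.

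LALBA, the lactose synthase subunit, was at 189.8 FPKM in mammary replicate 1 and at 33167 FPKM in mammary replicate 2. The lymphocyte libraries had 1.27 FPKM (replicate 1) and 1.63 FPKM (replicate 2). Both mammary libraries thus lay above both lymphocyte libraries, while the mammary libraries themselves were 175-fold apart. LALBA ranked 252nd of the 24616 rows in mammary replicate 1 and 12th in mammary replicate 2, and it held 0.0124% and 2.40% of the summed FPKM of these libraries. Set against the median tested row of the same library, it was 27.5-fold above it in mammary replicate 1 and 12880-fold in mammary replicate 2. In lymphocyte replicates 1 and 2 it was at 0.185 and 0.177 of the median tested row.

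PAEP, the main whey protein gene of ruminants, followed LALBA. Its level was 499.6 FPKM in mammary replicate 1, 47584 FPKM in mammary replicate 2, and 1.99 and 1.61 FPKM in lymphocyte replicates 1 and 2. The mammary libraries were 95.2-fold apart, with replicate 2 again the higher one, and neither overlapped the lymphocyte libraries. PAEP ranked 137th and 9th in mammary replicates 1 and 2, with 0.0325% and 3.44% of the summed FPKM. In lymphocytes its level was close to that of LALBA: the gene with the higher value was PAEP in replicate 1 and LALBA, by 1.63 against 1.61 FPKM, in replicate 2.

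LTF, the defence protein, had the opposite order in the mammary libraries. It was at 1782 FPKM in replicate 1 and at 630.4 FPKM in replicate 2, and at 0.0916 and 0.230 FPKM in lymphocyte replicates 1 and 2. The mammary libraries were 2.83-fold apart and both lay far above the lymphocyte libraries. LTF ranked 34th and 54th in mammary replicates 1 and 2. Relative to the median tested row of its library it stood 258-fold higher in mammary replicate 1 and 245-fold higher in mammary replicate 2, so that on this measure the gap between the mammary libraries was small. LTF was among 6 rows that reached 100 FPKM in both mammary libraries and stayed below 1 FPKM in both lymphocyte libraries, a set defined after its values were seen, and it was the third of these by mean mammary level.

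All 3 genes were tested for the difference between mammary tissue and lymphocytes with limma's moderated test on log2(FPKM + 1), fitted to all rows tested and adjusted over all of them by the Benjamini-Hochberg method. A positive value is higher in mammary tissue. As deposited, the log2 difference was 10.01 for LALBA (SE 0.88, limma adjusted p = 1.9e-26). It was 10.77 for PAEP (SE 0.89, limma adjusted p = 2.7e-30). For LTF it was 9.84 (SE 0.87, limma adjusted p = 2.6e-26). The background of such calls was 8.54% of the 12311 rows, called higher in mammary tissue by the same rule. Both mammary libraries lay above both lymphocyte libraries in 13.7% of the rows tested, and in LALBA, PAEP and LTF alike. By size, PAEP, LALBA and LTF had the 5th, 7th and 9th largest difference in favour of mammary tissue, and the median tested row was at -0.81. The order of the 3 genes, and most of all the size for LTF, depended on the added 1 FPKM. With 0.1 FPKM added, the log2 differences were 12.04 for LTF, 11.33 for PAEP and 10.67 for LALBA. With 5 FPKM added, they were 7.69 for LTF, 9.49 for PAEP and 8.62 for LALBA. Because of the way LTF entered the test, its value without the filter is given too: over the 19337 rows above 0 in any library, the log2 difference of 9.84 had a limma adjusted p of 0.032. LALBA and PAEP missed the threshold in that fit, with limma adjusted p-values of 0.10 each, and 0.0207% of its rows were called higher in mammary tissue.

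The mammary libraries were further apart in LALBA and PAEP than in LTF. In the fit to FPKM as deposited limma pooled the spread of rows of like level, and a row's own replicate spread did not enter. The SD of log2(FPKM + 1) between the mammary libraries was 5.26 for LALBA and 4.65 for PAEP, against 1.06 for LTF (n = 2 each). Between the lymphocyte libraries it was 0.15, 0.14 and 0.12 in the same order. Both LTF values there lay below 1 FPKM, where the added 1 FPKM compresses differences. In FPKM the lymphocyte libraries were 2.51-fold apart in LTF, 1.28-fold in LALBA and 1.23-fold in PAEP. Median-of-ratios scaling divides each library by the median ratio of its rows to their mean over libraries, and in that fit the row's own spread counted. There LTF, which had passed the filter on low values only through its mammary values, was past the threshold, at 10.41 on the log2 scale (SE 0.23, limma adjusted p = 0.0046). LALBA did not pass, at 10.79 (SE 3.03, limma adjusted p = 0.075), and neither did PAEP, at 11.57 (SE 2.74, limma adjusted p = 0.054). That fit called 12.1% of the rows higher in mammary tissue. Among the other scalings of all libraries, a row's own spread also counted in 2, with other outcomes. After quantile normalization LALBA and PAEP passed (limma adjusted p = 0.048 and 0.035), among 1374 of 12311 rows called higher in mammary tissue. With a common FPKM total without the 20 highest rows of any library, PAEP passed and LALBA did not (limma adjusted p = 0.04 and 0.058). There 1353 of 12311 rows were called higher in mammary tissue. LTF passed in both of these fits (limma adjusted p = 0.0092 and 0.0041), again having passed the filter only through its mammary values.

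**Figure D2:**
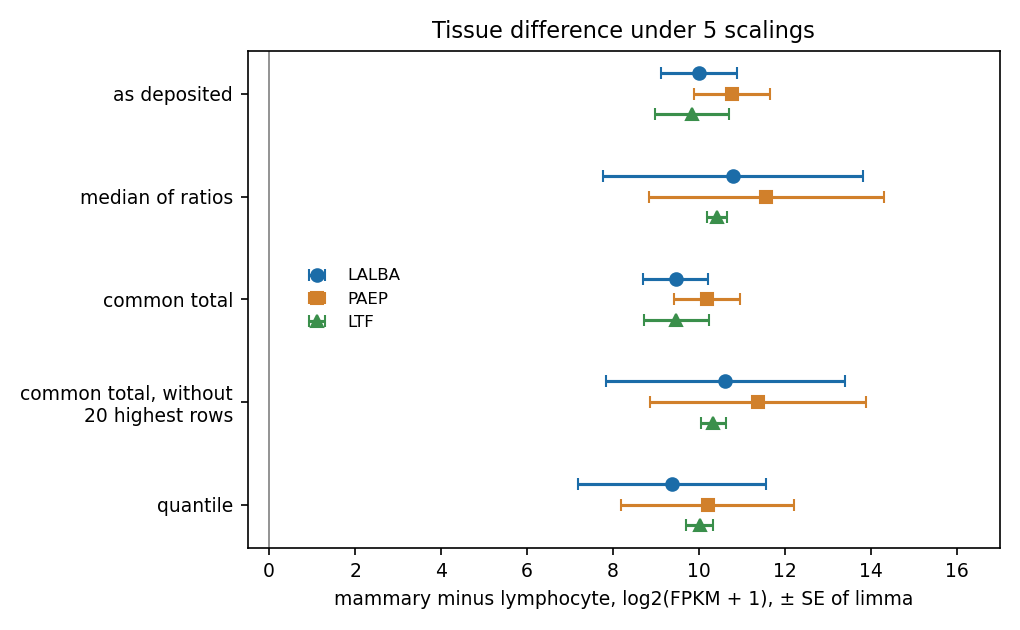
Log2 difference of mammary minus lymphocyte libraries in log2(FPKM + 1) with the standard error of limma, for LALBA, PAEP and LTF under FPKM as deposited and 4 other scalings. The differences lie between 9.38 and 11.57 throughout, and the standard errors of LALBA and PAEP are several times that of LTF in the fits in which a row's own spread counted (median of ratios, common total without the highest rows, and quantile).

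Single mammary libraries set the size of the LALBA and PAEP differences. Without mammary replicate 1 the log2 difference was 13.73 for LALBA and 14.06 for PAEP. Without mammary replicate 2 it was 6.29 and 7.49. LTF moved less, to 9.09 without mammary replicate 1 and 10.59 without mammary replicate 2. In these 4 fits per gene that left out 1 library without scaling, all 3 genes passed the threshold, with limma adjusted p-values of at most 0.0038. Of all tested rows, 8.72% and 9.64% were called higher in mammary tissue when mammary replicates 1 and 2 in turn were left out. Leaving out lymphocyte replicates 1 and 2 in turn lowered this share to 0.301% and 0.357%. After median-of-ratios scaling the fits without lymphocyte replicate 1 and without lymphocyte replicate 2 called 0 of the 12311 rows by limma, with lowest adjusted p-values of 0.082 and 0.066 while 2872 and 3057 rows had unadjusted p-values under 0.05, so that LALBA, PAEP and LTF did not stand apart from other rows in missing the threshold there. A group left with 1 library has no spread of its own, and the fit then takes the spread from the other group. Without a lymphocyte library and without scaling, that mammary spread was pooled over rows of like level. The wide spread of LALBA and PAEP themselves did not enter there.

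LALBA and PAEP had some of the widest gaps between the mammary libraries of all tested rows, and LTF did not. With 1 library on each side, it is a description without a test. LALBA had the largest difference in favour of mammary replicate 2 of all 12311 tested rows, at 7.44 in log2(FPKM + 1), and PAEP the 9th largest, at 6.57. More than 32-fold higher values in mammary replicate 2 were found in 0.154% of the tested rows, and LALBA and PAEP were among these 19 rows. LTF was at -1.50, and 21.8% of the tested rows had a lower value. It was more than 2-fold lower in mammary replicate 2, as were 53.6% of the tested rows, so that LTF lay within the bulk of the distribution.

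**Figure D3:**
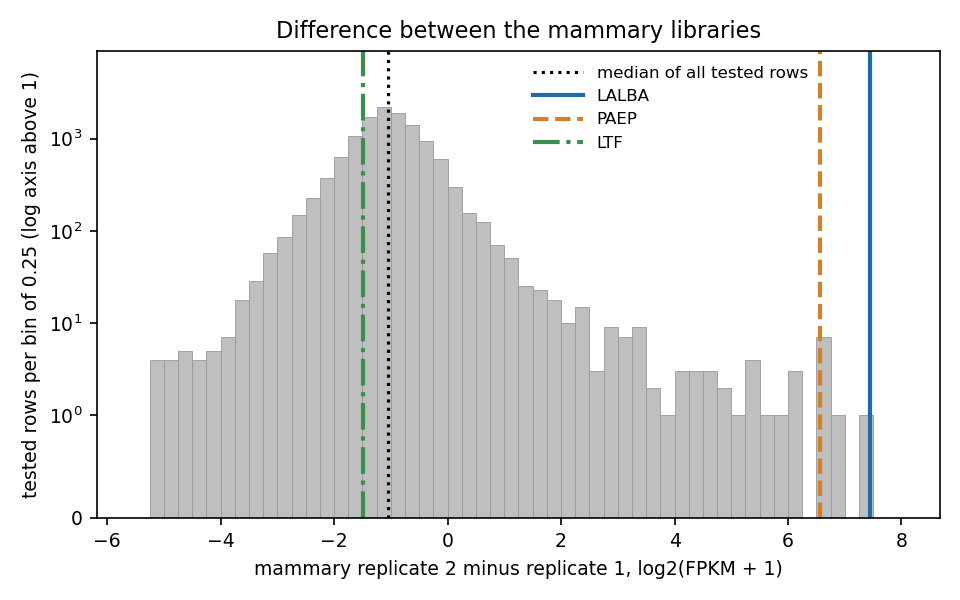
Number of tested rows (log axis above 1) by the difference between mammary replicate 2 and mammary replicate 1 in log2(FPKM + 1), in bins of 0.25, with vertical lines at LALBA, PAEP, LTF and the median row. LTF at -1.50 lies close to the median row at -1.05, whereas PAEP at 6.57 and LALBA at 7.44 lie at the far right end.

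Scaling by a single factor per library shifts all 3 genes between the mammary libraries alike, so it could not change the contrast among them. After median-of-ratios scaling LTF was at 1574 and 1449 in mammary replicates 1 and 2, a 1.09-fold gap, while LALBA was at 167.6 and 76240.2 and PAEP at 441.3 and 109379.5. LALBA and PAEP were then 455-fold and 248-fold higher in mammary replicate 2. How far LTF was lower in mammary replicate 2 therefore depended on the scaling, with ratios of replicate 1 to replicate 2 from 1.09 to 2.83 over the 4 scalings by a single factor. Under these 4, LALBA was 175-fold to 455-fold and PAEP 95.2-fold to 248-fold higher in mammary replicate 2.

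Ratios between genes within a library do not depend on its scaling. LALBA and PAEP kept a similar proportion: LALBA was at 0.380 and 0.697 times PAEP in mammary replicates 1 and 2, and at 0.640 and 1.01 times PAEP in lymphocyte replicates 1 and 2. This ratio spanned 2.66-fold over the 4 libraries and 1.83-fold over the mammary libraries. The lymphocyte ratios rest on values of 1.27 to 1.99 FPKM. Whether fragments of the mammary libraries were counted in the lymphocyte libraries was not tested. LTF, by contrast, was at 9.39 times LALBA in mammary replicate 1 and at 0.0190 times LALBA in mammary replicate 2, a 494-fold span. Against PAEP it was at 3.57 and 0.0132 times, a 270-fold span. In lymphocyte replicates 1 and 2 LTF was at 0.0721 and 0.141 times LALBA and at 0.0461 and 0.142 times PAEP, which lies between the mammary values.

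**Figure D4:**
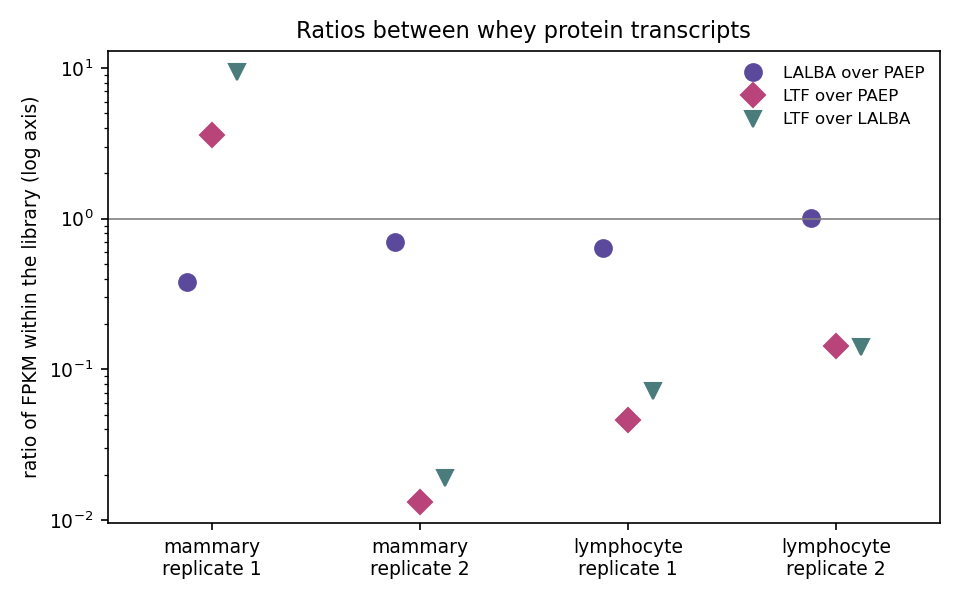
Ratio of FPKM between pairs of whey protein genes within each library (log axis), 1 point per pair and library, with a line at 1. LALBA over PAEP stays between 0.380 and 1.01, whereas both ratios with LTF are above 1 in mammary replicate 1 and below 1 in each of the other libraries.

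As a tissue comparison, these ratios could not pass a test, since 0.33 is the smallest two-sided p that 2 libraries against 2 can give. The mean log2 ratio of LALBA over PAEP, with 1 FPKM added to each, was lower in mammary tissue by a difference of -0.76 (exact permutation test, two-sided, p = 0.333). On that scale the 2 mammary values lay below both lymphocyte values, whereas without the added 1 FPKM mammary replicate 2 (0.697) lay above lymphocyte replicate 1 (0.640). The differences for LTF over PAEP and LTF over LALBA were -0.93 and -0.17 (exact permutation tests, two-sided, p = 1 each), with 1 mammary library on either side of the lymphocyte values. The 3 pairs are one family, and adjustment over them cannot lower a p.

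The low lymphocyte values of LALBA and PAEP were a similar small fraction of the level of each gene in mammary replicate 2. LALBA stood in lymphocyte replicates 1 and 2 at 38.3 and 49.0 millionths of its FPKM in mammary replicate 2, and PAEP at 41.7 and 33.9 millionths. Both belong to 7 rows at 10000 FPKM or more in mammary replicate 2 that were over 32-fold higher there than in mammary replicate 1, a set defined after the values were seen. In lymphocyte replicate 2 all 7 lay between 33.9 and 49.0 millionths. In lymphocyte replicate 1, 1 of the 7 rows was listed at 0 and the other 6 lay between 26.3 and 41.7 millionths. The other 10 rows at 10000 FPKM or more in mammary replicate 2 were at 81200 millionths or more in both lymphocyte libraries. LTF was at 145 and 364 millionths of its level in mammary replicate 2, and at 51.4 and 129 millionths of that in mammary replicate 1. Per the labels' protocol the libraries were sequenced as a pool with sample adaptors of their own; whether fragments of the mammary libraries were counted in the lymphocyte libraries was not tested.

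The rows most like each gene were found by the Euclidean distance of log2(FPKM + 1) over the 4 libraries, among the rows tested. For LALBA and for PAEP it was the same row, ENSBTAG00000005005, at a distance of 1.25 from LALBA and 0.401 from PAEP. That row had 427.4 FPKM in mammary replicate 1 and 45145 FPKM in mammary replicate 2, against 1.39 and 1.68 FPKM in the lymphocyte libraries. PAEP was the second nearest row to LALBA (distance 1.54), and LALBA the fourth nearest to PAEP. For LTF the nearest row was ENSBTAG00000005260, at a distance of 1.14, with 2757 and 1189.9 FPKM in mammary replicates 1 and 2. It was listed at 0 in lymphocyte replicate 1 and at 0.0717 FPKM in lymphocyte replicate 2. LALBA and PAEP were only the 63rd and 64th nearest rows to LTF. The table does not pair these identifiers with gene names.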

How the data were processed

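RNA of 2 mammary and 2 lymphocyte samples had been sequenced as read pairs of 150 bp. The authors deposited 1 FPKM value per Ensembl gene identifier and library; per the submitters' processing notes, Trimmomatic 0.39, STAR, Cufflinks and the assembly UMD3.1 were used, with settings, annotation and use of strand not given in the sources used here. FPKM keeps no count, so no count test, counting interval or detection limit is given. Each value column matched 1 sample title, and replicate numbers follow accession order. Values were compared as log2(FPKM + 1), a scale that understates the change of low genes, for rows that reached 1 FPKM in 2 or more libraries. The test was limma 3.58.1 in R 4.3.3 (two-sided, mean-variance trend, adjusted p threshold 0.05) with tissue as the only term, tested on simulated data first. The simulation gave every row the same spread, so it could not show how the test behaves for rows as variable as LALBA and PAEP. The 17 alternative fits changed the pseudocount, filter, scaling, trend or libraries. Genes, lists and tests were chosen with earlier results of these data known; the rule for other named rows was the row nearest to each of the 3 genes. No gene sequence was used.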

Additional observations from a re-analysis of the deposited data

How the results depend on the processing

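LALBA, PAEP and LTF were higher in mammary tissue in all 17 alternative fits each; 12, 13 and 15 of these passed the threshold, with limma adjusted p-values from 7.5e-38 to 0.23, from 6.6e-44 to 0.17 and from 1.2e-36 to 0.082. LALBA missed it without the filter on low values (log2 difference 10.01, limma adjusted p = 0.10), after median-of-ratios scaling (10.79) and after scaling to a common FPKM total without the 20 highest rows of any library (10.61, limma adjusted p = 0.058). PAEP missed it without the filter (10.77, limma adjusted p = 0.10) and after median-of-ratios scaling (11.57). In these fits a row's own spread entered the test. The shared direction of all fits adds no evidence, since they reuse the same libraries. It was set by the FPKM values, in which the lowest ratio of a mammary to a lymphocyte library was 116.7, in LALBA. Leaving out 1 library, with or without median-of-ratios scaling, gave 6.29 to 15.15 for LALBA, 7.49 to 15.50 for PAEP and 9.09 to 10.85 for LTF. With that scaling, the values without lymphocyte replicates 1 and 2, where no row of the table passed, were 10.73 and 10.63 for LALBA, 11.69 and 11.25 for PAEP and 10.26 and 10.22 for LTF. The number of all rows called, 2363 as deposited, was 5 without the filter, 1370 with a filter at 5 FPKM and 6718 after scaling to a common FPKM total. It was 102 to 3828 with 1 library left out and 0 to 2473 with median-of-ratios scaling as well (1478 without mammary replicate 2); the counts of 0 by limma came after median-of-ratios scaling without lymphocyte replicates 1 and 2, where 2872 and 3057 rows had an unadjusted p below 0.05. The difference between tissues in the log2 ratio of LTF over PAEP turned from -0.93 to 0.71, and that of LTF over LALBA from -0.17 to 1.37, with a pseudocount of 0.1. With 1 library left out these ranged from -4.97 to 3.102 and from -4.64 to 4.30, the positive end of each without mammary replicate 2, and LALBA over PAEP from -1.20 to -0.33. The log2 difference of mammary replicate 2 minus replicate 1 became 8.82 for LALBA, 7.95 for PAEP and -0.12 for LTF after median-of-ratios scaling. Under 2 scalings added after seeing the data it was 7.59, 6.72 and -1.35 with a common FPKM total, and 8.50, 7.63 and -0.44 with that total taken without the 20 highest rows. No paired analysis was possible because the mammary libraries are labelled female and the lymphocyte libraries male. The 4 titles also carry different numbers. Read depth is unknown, so how far counting error limits the lymphocyte values cannot be given.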
